A study of Homo sapiens with 18 samples.

Results

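The interaction of MLX knockdown with doxorubicin is the difference between 2 differences: the change in each gene's mRNA from untreated to doxorubicin-treated cells with an siRNA against MLX, less the same change with a control siRNA. It was computed from 12 of the 18 libraries of the study, chosen by their labels as 4 groups of 3, and for 13676 of the 33121 genes listed. All 4 groups were RPE-1 cells, a human retinal pigment epithelial line immortalized with hTERT, transfected with Lipofectamine RNAiMax for 2 days. The groups were a control siRNA left untreated (siControl untreated), the MLX siRNA left untreated (siMlx untreated), the control siRNA followed by doxorubicin (DXR) at 150 ng/ml for 3 days (siControl DXR) and the MLX siRNA followed by the same dose (siMlx DXR). The library names tag untreated cells D0 and treated cells D5, and the labels do not explain the tags, so that DXR, harvest day and time since transfection cannot be told apart. Nor do they say whether the libraries of a group came from separate cultures, so that the p-values weigh a difference against a spread that may be technical.

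MLX is a basic helix-loop-helix leucine zipper protein that binds DNA together with MondoA (gene MLXIP) or ChREBP, and these pairs switch on genes such as TXNIP when glucose phosphates accumulate. Doxorubicin poisons topoisomerase II and breaks DNA. In cells with working p53 the breaks raise p53 targets such as CDKN1A, the inhibitor p21, which halts cyclin-dependent kinases and silences the genes of replication and mitosis; cells that stay arrested can become senescent and secrete inflammatory and matrix proteins. An interaction asks whether the response to the drug depended on the knockdown. A positive value means that the DXR response was higher with siMlx than with siControl, and a negative one that it was lower, on a log2 scale on which 1 is a 2-fold difference between the 2 fold changes. The same value is the siMlx effect in treated cells less the siMlx effect in untreated cells.

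Total counts of the 12 libraries ran from 17061466 to 29219280, and 16911 to 18492 genes had a count. The lowest correlation between replicates was 0.991, between siMlx DXR libraries 1 and 3. As a check of the labelled cell type, 9 of 20 retinal pigment epithelium markers passed the filter on low counts, among them MITF, OTX2 and PAX6, and RPE65 was not among them. The summed level of the 20 was 688 to 878 CPM (counts scaled to library size) with siControl untreated, 529 to 624 with siMlx untreated, 1300 to 1360 with siControl DXR and 1120 to 1190 with siMlx DXR. Of 14 blood and endothelial markers 7 passed the filter too, 2 were at 0 in every library and the sum of the 14 stayed between 68.0 and 135 CPM. Of 15 fibroblast and mesenchymal markers 13 passed. The counts passing the filter thus do not set the labelled cell type apart. In bulk RNA, fewer cells expressing a gene and less RNA per cell cannot be told apart.

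MLX itself measured the knockdown. Its level was 25.8, 27.4 and 25.7 CPM with siControl untreated and 6.79, 7.12 and 7.10 CPM with siMlx untreated. In treated cells it was 26.4, 26.8 and 26.4 CPM with siControl and 5.70, 4.93 and 5.94 CPM with siMlx. The siRNA groups did not overlap in either condition, and the siMlx effect was -1.91 in untreated and -2.27 in treated cells, an interaction of -0.36 (SE 0.11, adjusted p = 0.0360, edgeR's quasi-likelihood test, with p adjusted over 13676 genes by the Benjamini-Hochberg method). This call was lost in 9 of 12 fits that left out 1 library, all but those without siControl untreated 2, siMlx untreated 1 or siMlx DXR 3 (adjusted p up to 0.155), with DESeq2 (0.0924), in the 12 siControl and siMlx libraries alone (0.0649) and with no low-count filter (0.201). MLXIP, the partner's gene, had an interaction of -0.06 (SE 0.12, adjusted p = 0.820), and TXNIP, the best-known target, -0.14 (SE 0.39, adjusted p = 0.869). TXNIP was at 10.9, 10.9 and 17.6 CPM with siControl untreated and at 1.18, 2.22 and 3.13 CPM with siMlx untreated. With DXR it was at 52.5, 66.7 and 69.8 CPM with siControl and at 6.4, 13.3 and 8.64 CPM with siMlx. TXNIP was lower with siMlx in both conditions and rose with DXR under both siRNAs, by log2 2.25 with siControl and 2.11 with siMlx. ARRDC4, its paralogue, had too few counts in untreated cells for a usable fold (3 counts with siControl and 4 with siMlx).

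Across the transcriptome 880 genes had a positive interaction (6.43% of those tested) and 795 a negative one (5.81%) at an adjusted p of 0.05. At least 2-fold differences were fewer, 97 positive (0.709% of those tested) and 110 negative (0.804%). For scale, DXR raised 3841 genes (28.1%) and lowered 3915 (28.6%) with siControl, and raised 4229 (30.9%) and lowered 4269 (31.2%) with siMlx. The 2 DXR responses, which share no library, had a Pearson correlation of 0.87 and a Spearman correlation of 0.82 across genes, which are not independent replicates. Of the 880 positive genes, 311 rose in both and more with siMlx, 316 passed the test of the DXR response with siMlx only, 121 with siControl only and 101 in both in opposite directions. Of the 795 negative genes, 339 fell in both and more with siMlx, 215 passed with siMlx only, 120 with siControl only and 75 rose in both but less with siMlx.

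**Figure D1:**
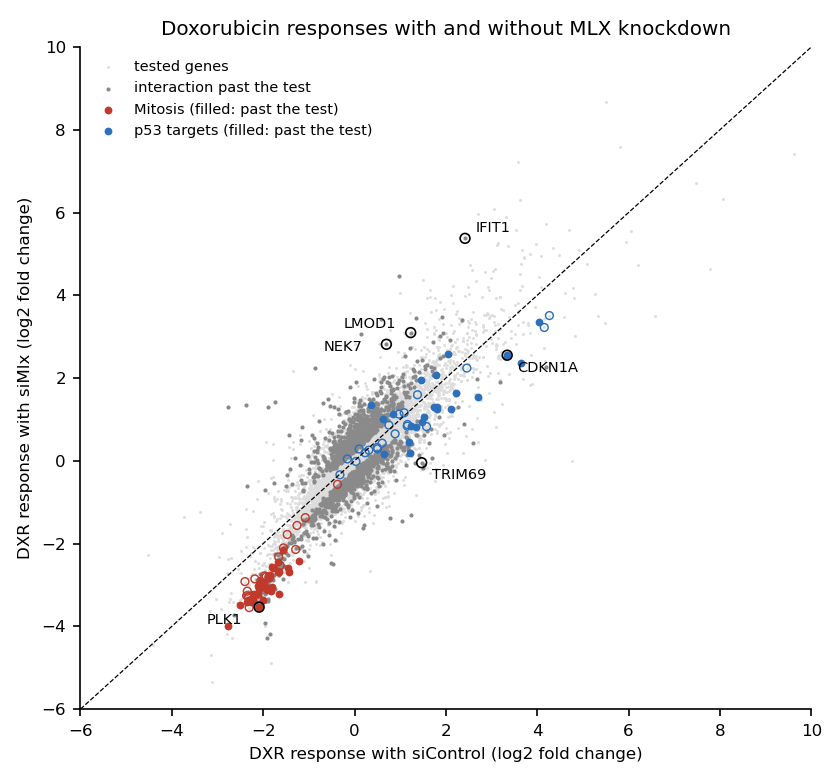
Log2 fold change with DXR in siControl cells (horizontal axis) and in siMlx cells (vertical axis), with a point for each tested gene. The dashed line marks equal responses. Dark grey points passed the test of the interaction, red circles are 57 mitosis genes and blue circles 42 p53 targets, filled where the gene passed; the red points lie below the line and most filled blue points lie below it too.

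Of the 30 gene lists, mitosis had the highest share of negative interactions. All 57 tested members fell with DXR in both siRNA groups, and the fall was deeper with siMlx: the median DXR response was -1.97 with siControl and -2.99 with siMlx. The interaction was below 0 for all 57, from -1.56 to -0.20 with a median of -0.98, and 37 of 57 (64.9%, against 5.81% of all genes) passed the test, none of them positive. In untreated cells the siMlx effect on the list had a median of 0.00, with 3 members higher and 4 lower (24.9% and 23.0% of all genes were). In treated cells 51 of 57 were lower with siMlx (16.2% of all genes were), with a median of -1.0. The mean log2 level of the list, relative to the untreated siControl mean, was -0.11, -0.15 and 0.26 with siControl and -0.16, -0.07 and 0.18 with siMlx in untreated libraries. In DXR libraries it was -2.06, -1.77 and -1.85 with siControl and -2.97, -2.74 and -2.88 with siMlx. The siRNA groups overlapped before the drug and did not overlap after it. The count of 37 was 24 without siMlx untreated library 3 and 21 without siMlx DXR library 1, while the median stayed between -1.13 and -0.89 whichever library was left out.

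PLK1, the kinase that drives mitotic entry and spindle assembly, lies at chr16:23677656-23690367 (GRCh38). It was at 125, 136 and 165 CPM with siControl untreated and at 173, 193 and 209 CPM with siMlx untreated. With DXR it was at 28.1, 37.9 and 34.3 CPM with siControl and at 16.5, 17.8 and 15.3 CPM with siMlx. The siMlx libraries were thus the higher ones before the drug and the lower ones after it, a fall of 4.25-fold with siControl and 11.6-fold with siMlx (interaction -1.45, SE 0.23, adjusted p = 0.000315). FOXM1, the transcription factor that activates many mitotic genes, went from 347, 377 and 461 CPM to 55.1, 61.7 and 56.7 CPM with siControl, and from 428, 466 and 493 CPM to 25.2, 32.4 and 29.5 CPM with siMlx. Its untreated groups overlapped and its treated groups did not (interaction -1.22, SE 0.19, adjusted p = 0.000276). MYBL2, a subunit of the activator of the same genes, had an interaction of -0.98 (adjusted p = 0.00334), and KIF20A, a kinesin of cytokinesis, -1.12 (adjusted p = 0.00144). CDC25C, the phosphatase that activates CDK1, had the lowest value of the list at -1.56 (SE 0.37, adjusted p = 0.00937). Outside the list, the mitotic kinesin KIF18B (-1.43), the centriole kinase PLK4 (-1.42), the cohesin acetyltransferase ESCO2 (-1.51) and the PCNA-binding factor PCLAF, listed as KIAA0101 (-1.45), were among the 12 lowest interactions of genes with at least 5 CPM in 1 of the groups. MKI67, the proliferation antigen Ki-67, had an interaction of similar size with a wider error (-1.20, SE 0.46, adjusted p = 0.10); it was at 41.3, 50.8 and 59.6 CPM with siControl DXR and at 18.9, 24.9 and 31.9 CPM with siMlx DXR.

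Replication genes went the same way with smaller values. In the list of DNA replication genes and E2F targets, 17 of 51 members tested had a negative interaction (33.3%) and none a positive one; the median was -0.54. The counts that left out 1 library ran from 6 to 25, and were 11 or fewer without any 1 of 8 libraries: siControl untreated 1 or 2, siMlx untreated 2 or 3, siControl DXR 1 or 2, and siMlx DXR 1 or 3. In treated cells 34 of 51 were lower with siMlx (16.2% of all genes were). In untreated cells 11 were lower and 7 higher (23.0% and 24.9% of all genes). RRM2, the small subunit of ribonucleotide reductase, was at 271, 280 and 381 CPM with siControl and at 263, 318 and 381 CPM with siMlx before the drug. After it, RRM2 was at 79.4, 93.1 and 80.2 CPM with siControl and at 36.9, 44.0 and 34.9 CPM with siMlx (interaction -1.17, SE 0.27, adjusted p = 0.00702). The untreated groups cover the same range and the treated groups are apart. ORC6, a subunit of the origin recognition complex, differed in that the groups were also apart before the drug, at 10.6, 11.3 and 14.8 CPM with siControl and 19.5, 21.9 and 27.7 CPM with siMlx (interaction -1.33, SE 0.25, adjusted p = 0.00137). The salvage enzyme TK1 (-0.86), the histone chaperone ASF1B (-1.20) and the cyclin CCNE2 (-1.36) had values in the same range. Among 43 genes of double-strand break and crosslink repair 7 were negative (16.3%) and none positive; the count was 3 or 4 without any 1 of 7 libraries: siControl untreated 1 or 2, siMlx untreated 3, siControl DXR 2 or 3, and siMlx DXR 1 or 3. The polymerase POLQ had an interaction of -1.04 (adjusted p = 0.0121) and the checkpoint kinase ATR one of -0.40 (adjusted p = 0.00938).

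**Figure D2:**
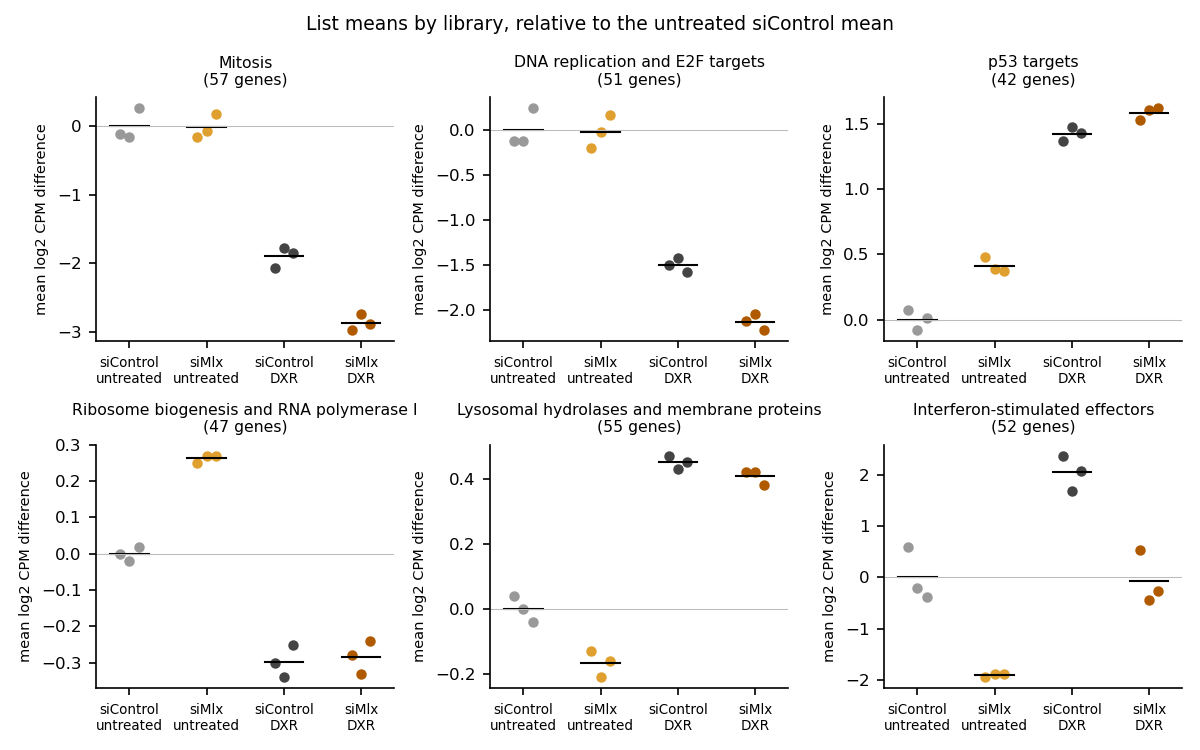
Mean log2 CPM of the tested members of 6 gene lists in each library, relative to the untreated siControl mean (vertical axis). Points are libraries 1 to 3 from left to right and bars are group means; for mitosis and replication the untreated groups overlap and the DXR groups are apart, and for ribosome biogenesis the untreated groups are apart and the DXR groups overlap.

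Of 15 CDK inhibitors, lamins and senescence markers, 5 had a negative interaction (33.3%, against 5.81% of all genes) and none a positive one. With siControl 4 members rose with DXR and 10 fell, so a shared negative sign is not a shared direction. CDKN1A, a negative member described below, rose with DXR under both siRNAs. LMNB1, the lamin whose loss marks senescent nuclei, was at 82.2, 79.6 and 108 CPM with siControl untreated and at 121, 140 and 144 CPM with siMlx untreated. After DXR its level was 14.5, 15.8 and 12.9 CPM with siControl and 11.5, 10.8 and 8.37 CPM with siMlx. The order of the siRNA groups was reversed by the drug (interaction -1.08, SE 0.24, adjusted p = 0.00627), although the siMlx effect in treated cells alone did not pass the test (-0.50, adjusted p = 0.0627). HMGB1, a nuclear protein released by senescent cells (-0.47, adjusted p = 0.00348), and the CDK4 inhibitor CDKN2C (-0.82, adjusted p = 0.0118) were negative as well. CDKN2A, the p16 and ARF locus, had an interaction of 0.08 (SE 0.16, adjusted p = 0.798): it was 215, 170 and 155 CPM with siMlx DXR and 148, 126 and 122 CPM with siControl DXR, and the siMlx effect was 0.36 in untreated and 0.45 in treated cells. IL6, an inflammatory cytokine of senescence, had an interaction of 0.24 (SE 0.28, adjusted p = 0.649).

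For p53 targets the direction depended on the scale, and both readings are given. Of 42 tested, 37 rose with DXR with siControl and 38 with siMlx (28.1% and 30.9% of all genes did). By the ratio of fold changes 16 had a negative interaction (38.1%) and 6 a positive one (14.3%), and the median was -0.26. Yet of the 16 negative genes 9 gained more CPM with siMlx than with siControl, and of the 6 positive ones 3 gained less. CDKN1A, at chr6:36676460-36687339 (GRCh38), shows how: it was at 223, 220 and 241 CPM with siControl untreated and at 581, 530 and 548 CPM with siMlx untreated. With DXR it reached 2080, 2530 and 2320 CPM with siControl and 2960, 3450 and 3330 CPM with siMlx. siMlx libraries were higher in both conditions without overlap. The rise was 10.1-fold with siControl and 5.87-fold with siMlx (interaction -0.79, SE 0.11, adjusted p = 6.64e-05), while the gain was larger with siMlx by 607 CPM. BBC3, the BH3-only protein PUMA, behaved alike: 2.31, 1.68 and 2.27 CPM against 12.6, 10.6 and 7.77 CPM before the drug, and 14.4, 15.2 and 12.2 CPM against 31.3, 27.5 and 30.7 CPM after it (interaction -1.18, SE 0.21, adjusted p = 0.00101, with a gain larger by 7.67 CPM). The same holds for CYFIP2, an actin regulator (-1.28, adjusted p = 0.000129).

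Other p53 targets were negative on both scales. AEN, an apoptosis-enhancing nuclease, was at 38.7, 33.8 and 40.2 CPM with siControl untreated and at 55.9, 57.6 and 55.3 CPM with siMlx untreated. It rose to 83.8, 84.5 and 89.6 CPM with siControl and to 74.4, 78.7 and 79.9 CPM with siMlx. The groups were apart in both conditions and in opposite order (interaction -0.73, SE 0.09, adjusted p = 1.27e-05), although the siMlx effect in treated cells did not pass the test (-0.15, adjusted p = 0.0703). The pore-forming death effectors BAX (-0.48, adjusted p = 0.000263) and BAK1 (-0.49, adjusted p = 0.000315) started higher with siMlx and ended closer to siControl: BAX was at 67.0, 68.4 and 72.1 CPM against 104, 108 and 100 CPM in untreated cells, and at 105, 112 and 107 CPM against 115, 115 and 120 CPM in treated ones. In the other direction TNFRSF10D, a decoy receptor for the death ligand TRAIL, was at 122, 179 and 196 CPM with siControl and 166, 154 and 177 CPM with siMlx before the drug, and at 131, 283 and 222 CPM and 383, 448 and 435 CPM after it (interaction 0.99, SE 0.28, adjusted p = 0.0262). In the separate list of BCL2 family and apoptosis genes, 2 of 21 were positive (9.52%) and 6 negative (28.6%). BMF, a BH3-only protein of that list and not of the p53 list, was at 64.4, 83.0 and 69.3 CPM with siControl untreated and between 23.5 and 28.5 CPM in all 9 other libraries (interaction 1.20, SE 0.13, adjusted p = 6.09e-06). Its DXR response passed the test with siControl only. The count of 6 positive p53 targets was 3 without siMlx untreated library 2 and without siMlx DXR library 2.

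Genes that build ribosomes had a higher mRNA level with siMlx in untreated cells, and few did in treated cells. Of 47 tested genes of ribosome biogenesis and RNA polymerase I, 33 were higher with siMlx in untreated cells (24.9% of all genes were) with a median effect of 0.31, and 3 were higher in treated cells (14% of all genes) with a median of 0.04. DXR lowered 30 with siControl and 44 with siMlx (28.6% and 31.2% of all genes). The interaction was negative for 19 (40.4%), positive for none, with a median of -0.27. The list mean was 0.25, 0.27 and 0.27 in siMlx untreated libraries, against -0.00, -0.02 and 0.02 with siControl, and overlapped between siRNAs after the drug, at -0.30, -0.34 and -0.25 with siControl and -0.28, -0.33 and -0.24 with siMlx. WDR12, a subunit of the complex that matures the large ribosomal subunit, was at 24.3, 24.3 and 23.4 CPM with siControl and 33.1, 34.9 and 36.0 CPM with siMlx, and after DXR at 16.3, 15.2 and 17.6 CPM and 16, 16.1 and 15.9 CPM (interaction -0.56, SE 0.10, adjusted p = 0.00105). The groups were apart before the drug and overlapped after it. RRN3, which recruits polymerase I (-0.43), WDR43, a small-subunit processing factor (-0.36), and the nucleolar helicase DDX21 (-0.41) also passed. The count of 19 was 11 without siMlx untreated library 2 or siMlx DXR library 2, 10 without siControl DXR library 1 or siMlx DXR library 1, and 9 without siControl DXR library 3, while the median stayed between -0.30 and -0.23. Of 78 cytosolic ribosomal protein genes, 21 were higher and 3 lower with siMlx in untreated cells (median 0.10). The higher count was near the share of all genes (24.9%), and the lower count was below it (23.0%). In treated cells 34 were higher (14% of all genes were) and none lower, with a median of 0.17. Their interaction was positive for 2 (2.56%, below the 6.43% of all genes) and negative for none. The count of 2 was 1 without siControl untreated library 2, siControl DXR library 1 or siMlx DXR library 3. It was 4 without siMlx DXR library 1.

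**Figure D3:**
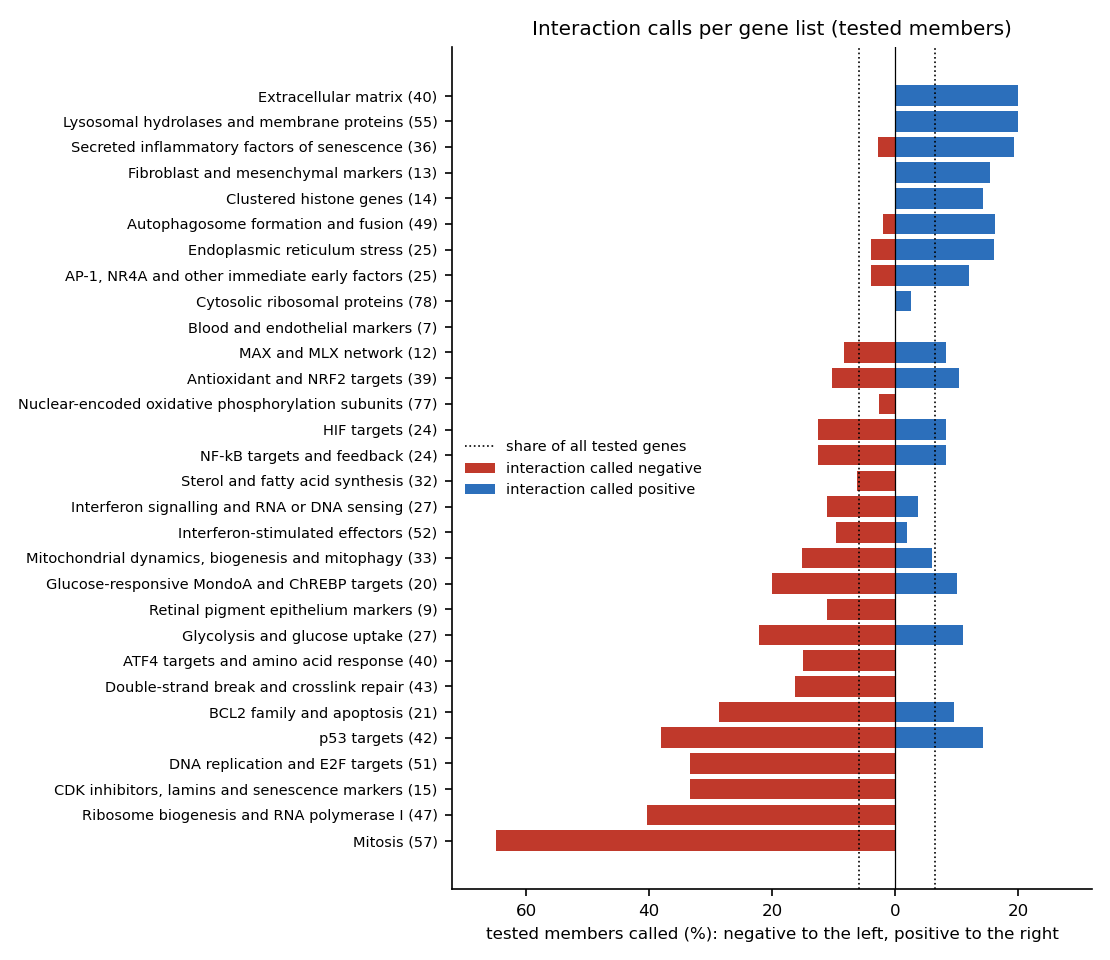
Share of the tested members of 30 gene lists with a negative interaction (red, to the left) and a positive one (blue, to the right), in percent, with the number tested in brackets. Dotted lines mark the shares among all tested genes, 5.81% and 6.43%; mitosis reaches 64.9% negative and lysosomal genes 20.0% positive.

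Most interactions were siMlx effects that were smaller in treated than in untreated cells. Of the 880 positive genes, 444 were lower with siMlx in both conditions and less so with DXR, and 380 were lower in untreated cells only. Of the 795 negative genes, 210 were higher in both and less so with DXR, 357 were higher in untreated cells only and 164 differed in treated cells only. Across all genes the SD of the siMlx effect was 0.61 in untreated and 0.46 in treated cells; the 2 effects share no library and had a Pearson correlation of 0.67 (Spearman 0.65). Among 719 genes (5.26%) at least 2-fold lower with siMlx in untreated cells, the median effect was -1.41 untreated and -0.78 with DXR, and 319 (44.4%) had a positive interaction. These genes were chosen on the untreated libraries that also enter the interaction, so the counts are a description. Chosen instead on treated libraries, the 434 genes (3.17%) at least 2-fold lower had a median effect of -1.34 in both conditions, with 68 positive and 79 negative.

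**Figure D4:**
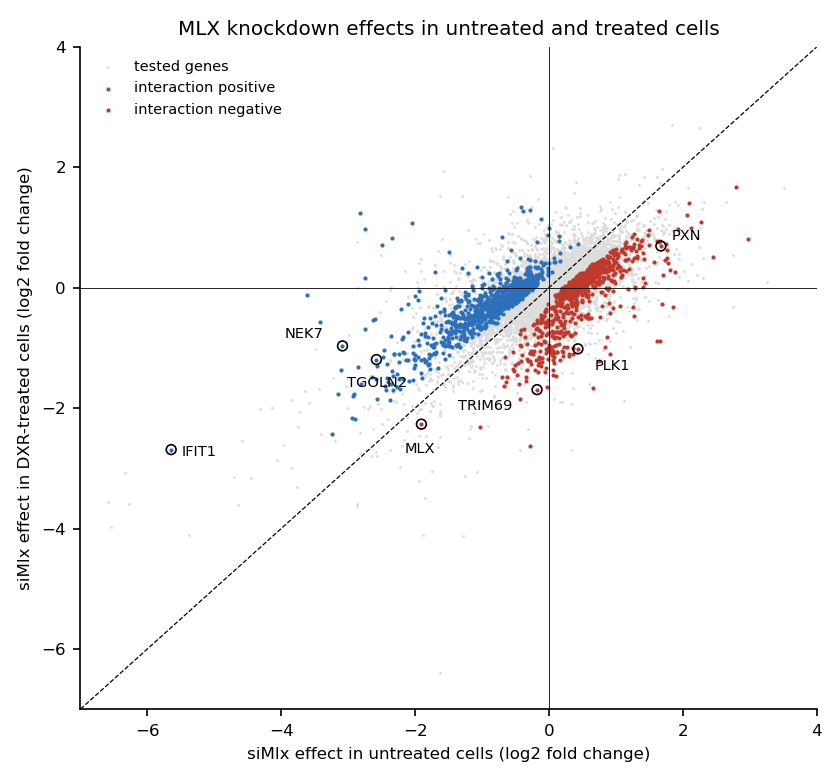
Log2 fold change of siMlx against siControl in untreated cells (horizontal axis) and in DXR-treated cells (vertical axis), with a point for each tested gene, with positive interactions in blue and negative ones in red. The dashed line marks equal effects; most blue genes were lower with siMlx in untreated cells and lie nearer to 0 in treated ones, and MLX lies just below the dashed line.

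The genes with the smallest p-values were of this kind. TGOLN2, a membrane protein that cycles through the trans-Golgi network (chr2:85318020-85328425, GRCh38), was at 318, 298 and 303 CPM with siControl untreated and at 51.8, 46.8 and 55.5 CPM with siMlx untreated. With DXR it was at 495, 448 and 489 CPM with siControl and at 211, 196 and 219 CPM with siMlx. The siMlx libraries were lower in both conditions, with an siMlx effect of -2.58 before the drug and -1.19 after it (interaction 1.38, SE 0.09, adjusted p = 4.17e-08), although the gain in CPM with DXR was smaller with siMlx (a difference of -13.4 CPM). TPM4, an actin-binding tropomyosin, was at 1510, 1460 and 1350 CPM with siControl and 337, 329 and 335 CPM with siMlx before the drug, and at 1340, 1180 and 1290 CPM and 813, 711 and 759 CPM after it. DXR thus lowered TPM4 with siControl (-0.19) and raised it with siMlx (1.19; interaction 1.37, adjusted p = 4.17e-08). NEK7, a mitotic kinase also required by the NLRP3 inflammasome, was at 187, 163 and 170 CPM against 19.6, 20.6 and 21.0 CPM before the drug and at 248, 274 and 321 CPM against 124, 147 and 160 CPM after it. It rose 1.62-fold with siControl and 7.04-fold with siMlx (interaction 2.12, SE 0.17, adjusted p = 1.81e-07).

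CMTM6, which stabilises PD-L1 at the cell surface (1.43), the receptor NOTCH2 (1.22), the endoplasmic reticulum protein EI24 (0.91), the microtubule-severing protein KATNAL1 (1.04) and the sphingomyelin synthase SGMS2 (1.30) followed the same pattern, lower with siMlx in both conditions and less so with DXR. For the kinesin KIF1C the siMlx effect passed the test in untreated cells only: it was at 281, 290 and 285 CPM against 139, 123 and 127 CPM before the drug, and at 369, 373 and 387 CPM against 363, 352 and 389 CPM after it (interaction 1.10, SE 0.08, adjusted p = 4.86e-08). PXN, the focal adhesion scaffold paxillin, mirrored them from above, at 132, 135 and 147 CPM against 441, 440 and 438 CPM before the drug and 230, 234 and 244 CPM against 367, 380 and 398 CPM after it. DXR raised PXN with siControl (0.77) and lowered it with siMlx (-0.21; interaction -0.98, SE 0.07, adjusted p = 5.12e-08). The muscle actin nucleator LMOD1 (1.87), the small protein BEX4 (2.09), the methyltransferase ATPSCKMT, listed as FAM173B (1.74), the ribonuclease RNASE4 (1.54), the chemerin receptor CMKLR1 (1.44) and the synaptotagmin SYT12 (1.85) were among the 12 highest interactions, each lower with siMlx in untreated cells.

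A 7-base word in 3′ untranslated regions (UTRs) was more frequent among genes lower with siMlx than among other genes. Every 7-base word was searched on the transcript strand of 12252 UTRs (GENCODE release 29), and AATGAGA ranked first among words for a lower siMlx effect, in untreated and in treated cells. It overlaps ATGAGAA, which ranked first for a higher interaction, with AATGAGA the next. Of the genes above, TGOLN2, KATNAL1 and SGMS2 hold AATGAGA once, shown in capitals within 29 bases of the transcript so that the match can be read in its place.
TGOLN2: tgttgtggtctAATGAGAagtatttttca
KATNAL1: gccttacccagAATGAGAttgaattgttt
SGMS2: aataaatcatgAATGAGAagagtgcttta
On GRCh38 these windows are chr2:85318123-85318151 (minus strand), chr13:30205552-30205580 (minus strand) and chr4:107914296-107914324 (plus strand). Of all UTRs searched 2267 hold the word, 18.5%, while 334 of 843 positive genes with a UTR (39.6%) and 95 of 775 negative ones (12.3%) do. Read the other way, 14.7% of genes holding it were positive against 5.10% of those not holding it, and 4.19% against 6.81% were negative. Genes holding it were lower with siMlx in 40.2% of cases in untreated and 29.8% in treated cells, against 20.9% and 14.9% of the others. Their UTRs were longer, with a median of 3227 against 1137 bases, and in each of 4 equal classes of UTR length the share of positive genes was higher among holders, 9.21% against 3.25% in the shortest class and 15.7% against 8.52% in the longest. For the interaction of the MondoA siRNA with DXR, the shares of positive genes were 7.37% and 6.14%. The word was chosen as the extreme one over these same genes, so the shares describe that choice and are no test of it. In treated cells a word that does not overlap it, CTGGTCA, ranked next at almost the same value. Among other genes named, MLX holds AATGAGA, and so do CDKN1A, FAM84A, NEURL1B, CDC25C and TRIM5, whose interactions were negative. More of the named holders had positive interactions: FAM173B, CMKLR1, LAMP2, ARSB, FGF2, PLAT, ATG2B, CALCOCO2, BNIP3L, PFKFB2, NQO1 and SESN3. Most genes were named for their interactions, so this tally adds no support for the word. KIF1C, NEK7, TPM4, CMTM6 and NOTCH2 do not hold it. A match is a description of letters; what reads them was not tested.

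**Figure D5:**
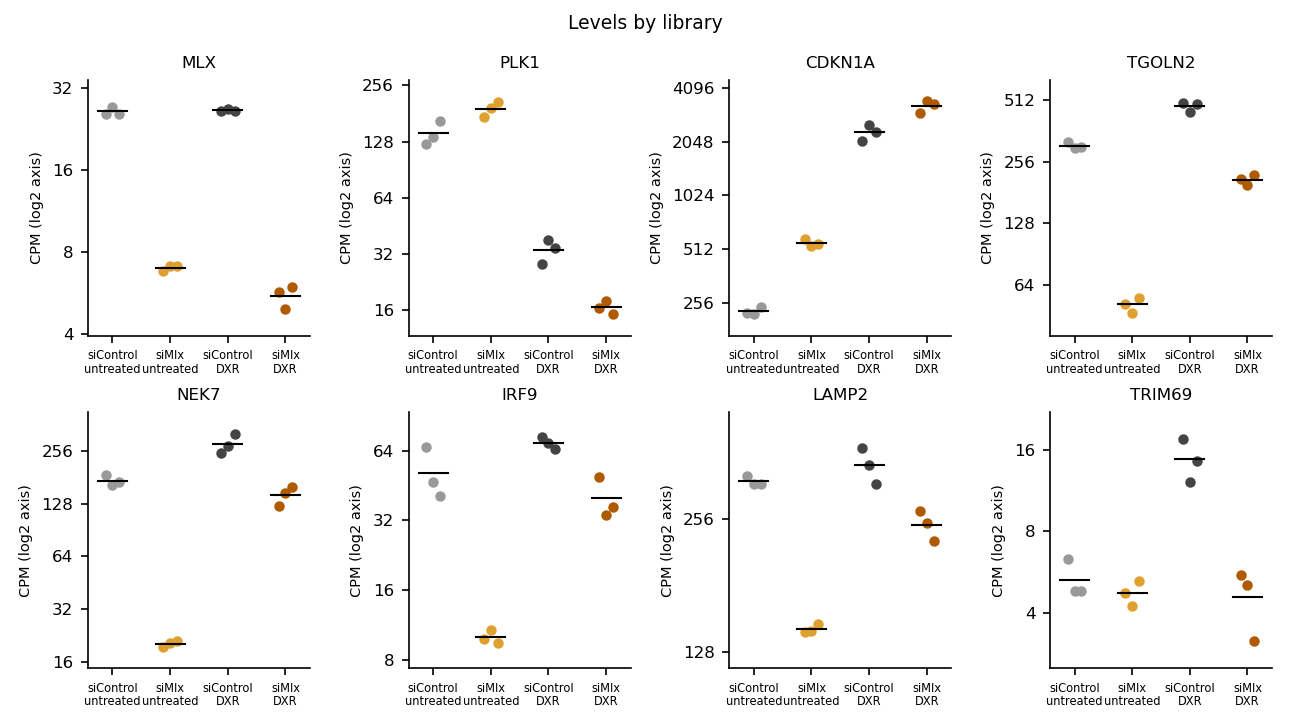
Levels of 8 genes in CPM on a log2 axis, in the 4 groups, with libraries 1 to 3 from left to right and bars at the group mean. MLX is low in both siMlx groups, PLK1 drops furthest with siMlx and DXR, and TGOLN2, NEK7, IRF9 and LAMP2 are low with siMlx in untreated cells and less so with DXR.

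Interferon-stimulated genes, which code for antiviral effectors and are induced when cytosolic nucleic acid or interferon is sensed, had effects of both factors in most members, and a share of interactions near that of all genes (11.5% against 12.2%, both directions together). Of 52 effectors, 50 rose with DXR with siControl and 44 with siMlx (28.1% and 30.9% of all genes did). With siMlx 45 were lower in untreated cells and 49 in treated cells (23.0% and 16.2% of all genes were). The median DXR response was 1.85 with siControl and 1.71 with siMlx, and the median interaction was -0.13, from -0.42 to 0.07 when 1 library was left out. As negative 5 passed (9.62%) and as positive 1; the count of 5 was 9 without siControl untreated library 1. Some members had large values with very wide errors, such as OAS1 (3.27, SE 1.42) and XAF1 (3.03, SE 3.26), and did not pass. The list mean varied within groups: it was 0.59, -0.20 and -0.38 in siControl untreated libraries and 0.53, -0.44 and -0.27 in siMlx DXR libraries. The first library stood above the others in both groups, and the values above give the median and the count without single libraries.

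The 5 negative effectors were IFI16, TRIM5, CMTR1, PSMB8 and IFITM2. IFI16, a sensor of nuclear and cytosolic DNA, was at 94.3, 67.4 and 70.1 CPM with siControl untreated and at 61.9, 62.9 and 70.5 CPM with siMlx untreated, which overlap. In treated cells it was at 157, 121 and 153 CPM with siControl and at 76.6, 62.3 and 67.4 CPM with siMlx. It rose with siControl (0.89) and its response with siMlx was 0.08 (interaction -0.81, SE 0.18, adjusted p = 0.00550). The restriction factor TRIM5 (-0.75, adjusted p = 0.00464), the cap methyltransferase CMTR1 (-0.49, adjusted p = 0.00893), the immunoproteasome subunit PSMB8 (-0.52, adjusted p = 0.0114) and the membrane protein IFITM2 (-0.55, adjusted p = 0.0347) were negative as well. TRIM5 rose with DXR also with siMlx (0.38, adjusted p = 0.00839), and PSMB8 was lower with siMlx already in untreated cells (-0.43, adjusted p = 0.000611). On the separate list of interferon signalling genes, the RNA-editing enzyme ADAR was negative (-0.54, adjusted p = 0.0148).

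IRF9, the DNA-binding subunit of the factor that activates these genes, went the opposite way. It was at 66.4, 47.1 and 40.8 CPM with siControl untreated and at 9.88, 10.8 and 9.44 CPM with siMlx untreated. With DXR it was at 73.5, 69.0 and 65.2 CPM with siControl and at 49.2, 33.8 and 36.7 CPM with siMlx. It rose 1.34-fold with siControl and 3.97-fold with siMlx (interaction 1.56, SE 0.23, adjusted p = 0.000124). IFIT1, an effector that binds foreign RNA ends, was the positive member: 216, 79.4 and 56.1 CPM against 2.53, 2.17 and 2.35 CPM before the drug, and 725, 522 and 639 CPM against 166, 47.8 and 80.2 CPM after it (interaction 2.96, SE 0.79, adjusted p = 0.0177). Its gain in CPM was smaller with siMlx (-416), and the call was lost without siMlx untreated library 2 (adjusted p = 0.0533). SOCS1, the feedback inhibitor of JAK kinases, was negative (-1.37, SE 0.44, adjusted p = 0.0473), a call that ended without any 1 of 9 libraries, all but siMlx untreated 3, siControl DXR 2 and siMlx DXR 1 (adjusted p up to 0.11).

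Lysosomal genes were on the positive side. Of 55 hydrolases and membrane proteins 11 had a positive interaction (20.0%) and none a negative one; the median was 0.13. In untreated cells 24 were lower with siMlx and 5 higher (23.0% and 24.9% of all genes were). In treated cells 8 were lower and 7 higher, near the shares of all genes (16.2% and 14%). LAMP2, the membrane protein needed for fusion with autophagosomes (chrX:120427827-120469365, GRCh38), was at 322, 309 and 308 CPM against 142, 143 and 148 CPM before the drug, and at 372, 341 and 308 CPM against 267, 251 and 229 CPM after it. Its DXR response passed the test with siMlx only (0.79, against 0.12 with siControl; interaction 0.67, SE 0.10, adjusted p = 0.000291). Among the enzymes, the arylsulfatase ARSB (0.93, adjusted p = 1.76e-06), the thioesterase PPT1 (0.38, adjusted p = 0.00156) and the glucuronidase GUSB (0.40, adjusted p = 0.00865) passed. For ARSB the gain in CPM was slightly smaller with siMlx (-1.11 CPM). The count of 11 was 6 without siControl untreated library 1 or siMlx untreated library 2, and 7 without siMlx untreated library 3.

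Autophagy, which delivers cytoplasm to lysosomes, gave 8 positive genes of 49 (16.3%) and 1 negative. SQSTM1, the receptor p62, was at 839, 862 and 870 CPM with siControl and 688, 677 and 695 CPM with siMlx before the drug, and at 822, 899 and 810 CPM and 918, 967 and 900 CPM after it. The siRNA groups changed places (interaction 0.46, SE 0.07, adjusted p = 0.000287). The lipid transfer protein ATG2B (0.63), the initiation factor ATG13 (0.42) and the receptor CALCOCO2 (0.54) were the other leading members, and the initiating kinase ULK2 was the negative one (-0.75, adjusted p = 0.0348). The count of 8 was 5 without siControl untreated library 2, siControl DXR library 1 or siMlx DXR library 2. RUBCN, an inhibitor of autophagosome maturation listed as KIAA0226, was lower with siMlx in both conditions (-1.29 and -1.13) with an interaction of 0.15 (SE 0.14, adjusted p = 0.546). TFEB, the transcription factor of lysosomal genes, had one of 0.28 (SE 0.15, adjusted p = 0.262).

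The paired mitophagy receptors BNIP3L and BNIP3, related outer-membrane proteins that are also hypoxia targets, moved in opposite directions. BNIP3L was at 257, 260 and 252 CPM against 52.5, 59.2 and 59.4 CPM before the drug and at 310, 338 and 345 CPM against 142, 163 and 163 CPM after it (interaction 1.08, SE 0.09, adjusted p = 2.77e-07). BNIP3 was at 82.6, 81.5 and 80.9 CPM against 75.6, 89.4 and 88.6 CPM before it and at 105, 94.4 and 104 CPM against 70.4, 69.5 and 66.8 CPM after it (interaction -0.60, SE 0.09, adjusted p = 0.000114). For BNIP3L the siMlx effect was smaller in treated cells, and for BNIP3 it passed the test in treated cells only. PINK1, the kinase that marks damaged mitochondria, was positive (0.65, adjusted p = 0.000878). Across 33 genes of mitochondrial dynamics, biogenesis and mitophagy 2 were positive (6.06%) and 5 negative (15.2%), against 6.43% and 5.81% of all genes. The count of 5 was 3 without siMlx untreated library 2, siControl DXR library 3, siMlx DXR library 1 or siMlx DXR library 2. Of 77 nuclear-encoded subunits of oxidative phosphorylation none was positive and 2 were negative (2.6%, below the share of all genes). The count of 2 was 1 without siMlx untreated library 2 or siControl DXR library 1 or 3, 0 without siMlx DXR library 1 and 4 without siMlx DXR library 2.

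Among 20 glucose-responsive targets of MondoA and ChREBP, 2 were positive (10.0%) and 4 negative (20.0%); 1 was positive without siMlx untreated library 1 or 3, siControl DXR library 1 or 3, or siMlx DXR library 1. HK2, the hexokinase that traps glucose in the cell, was at 62.3, 52.9 and 50.9 CPM with siControl and 76.5, 77.7 and 69.9 CPM with siMlx before the drug, and at 79.1, 75.3 and 82.9 CPM and 52.9, 53.2 and 62.8 CPM after it. The siMlx libraries were the higher ones untreated and the lower ones with DXR (interaction -0.92, SE 0.14, adjusted p = 0.000164). The enzymes that set fructose-2,6-bisphosphate, an activator of glycolysis, divided: PFKFB4 (-0.74) and PFKFB3 (-0.50) were negative and PFKFB2 was positive (1.05, adjusted p = 0.00151). PFKFB2 was at 9.10, 7.59 and 7.72 CPM against 3.37, 3.08 and 3.18 CPM before the drug and at 12.1, 16.5 and 13.3 CPM against 12.7, 11.1 and 10.2 CPM after it. Its groups were apart before the drug and overlapped after it. Of 12 members of the MAX and MLX network only MLX and the repressor MXD4 passed (16.7%, against 12.2% of all genes, both directions together).

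Of 40 genes of the ATF4 amino acid response 6 were negative (15%) and none positive, and the count was 3 without siMlx DXR library 1. CHAC1, which degrades glutathione, was at 2.11, 2.29 and 2.24 CPM against 8.42, 9.04 and 4.59 CPM before the drug and at 6.27, 5.94 and 5.56 CPM against 8.96, 7.37 and 8.21 CPM after it (interaction -1.27, SE 0.27, adjusted p = 0.00394). ATF4 itself (-0.40, adjusted p = 0.0116) and the tRNA exporter XPOT (-0.36, adjusted p = 0.00262) were negative too. Of 39 antioxidant genes 4 were positive (10.3%) and 4 negative (10.3%); the negative count was 2 without siControl untreated library 1, siMlx untreated library 2, siControl DXR library 2 or 3, or siMlx DXR library 1. FTH1, the ferritin heavy chain, was at 2030, 2040 and 1940 CPM against 869, 949 and 948 CPM before the drug and at 1830, 2010 and 1680 CPM against 1480, 1620 and 1380 CPM after it (interaction 0.82, SE 0.10, adjusted p = 2.69e-05). The quinone reductase NQO1 was positive (0.61, adjusted p = 0.000323), as was the sestrin SESN3 (1.27, adjusted p = 0.0253), while the sestrin SESN1 (-0.56, adjusted p = 0.00893) and the mitochondrial peroxiredoxin PRDX3 (-0.31, adjusted p = 0.00724) were negative.

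Secreted and matrix genes were mostly positive where they passed. Of 36 secreted inflammatory factors of senescence 7 were positive (19.4%) and 1 negative, and of 40 matrix genes 8 were positive (20.0%) and none negative. TNFRSF11B, the decoy receptor osteoprotegerin, was at 7.86, 10.5 and 8.55 CPM against 3.93, 4.09 and 4.64 CPM before the drug and at 14.2, 17.3 and 26.0 CPM against 19.1, 24.4 and 29.4 CPM after it (interaction 1.41, SE 0.32, adjusted p = 0.00656). Its groups were apart before the drug and overlapped after it. The growth factor FGF2 (0.63), the plasminogen activator PLAT (0.51) and the protease inhibitor TIMP1 (0.35) passed, as did the matricellular proteins CCN1, listed as CYR61 (0.64), and CCN2, listed as CTGF (0.56), the collagen COL8A1 (0.58) and SPARC (0.37). SPARC was at 2550, 2510 and 2230 CPM against 1990, 1890 and 1820 CPM before the drug and at 5690, 5180 and 5690 CPM against 5840, 5290 and 5540 CPM after it. The count of 7 secreted factors was 4 without siControl untreated library 1, siMlx untreated library 2 or siMlx untreated library 3. The count of 8 matrix genes was 4 without siControl untreated library 1, 5 without siControl untreated library 2, siMlx untreated library 2 or 3 or siControl DXR library 2, and 13 without siMlx untreated library 1. Markers of fibroblasts summed to 4130 to 4520 CPM with siControl and 5690 to 6020 CPM with siMlx in untreated cells, and to 5790 to 6190 CPM and 7160 to 7940 CPM with DXR; the part of this shift in the matrix genes was not tested.

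Among the genes described next, whose interactions were negative, TRIM69 and STC1 passed the test of the siMlx effect in treated cells and not in untreated ones. TRIM69, a ubiquitin ligase of mitotic spindle poles, was at 6.32, 4.79 and 4.8 CPM with siControl untreated and at 4.72, 4.24 and 5.22 CPM with siMlx untreated. Treated libraries had 17.6, 12.2 and 14.6 CPM with siControl and 5.52, 5.08 and 3.13 CPM with siMlx. It rose 2.77-fold with siControl, and its response with siMlx was -0.05 (interaction -1.52, SE 0.25, adjusted p = 0.000542). The secreted glycoprotein STC1 was at 148 to 176 CPM in the 9 libraries of the other groups and at 103, 108 and 114 CPM with siMlx DXR (interaction -0.62, SE 0.09, adjusted p = 0.000118). NEURL1B, a ubiquitin ligase of Notch signalling, was at 5.15, 4.28 and 7.11 CPM against 7.02, 9.74 and 11.2 CPM before the drug and at 0.968, 1.84 and 1.44 CPM against 0.640, 0.647 and 0.540 CPM after it, the lowest interaction of the genes above 5 CPM (-1.96, SE 0.46, adjusted p = 0.00838). BATF3 (-1.96), an AP-1 family factor, and TOX (-1.49), a DNA-binding protein, were higher with siMlx in untreated cells, and their groups overlapped in treated cells. LRATD1, listed as FAM84A (-1.94), and the endothelial proteoglycan ESM1 (-1.52) rose with DXR under both siRNAs, by a larger factor with siControl.

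Among called genes with at least 5 CPM in 1 group, the 2 highest interactions were those of RN7SL2 and RN7SL1, noncoding RNAs that a poly(A)-based library holds only in traces. RN7SL2, an RNA of the signal recognition particle, was at 7.76, 14.7 and 5.55 CPM with siControl untreated, at 0.898, 1.72 and 1.25 CPM with siMlx untreated, at 1.22, 1.38 and 1.44 CPM with siControl DXR and at 0.989, 2.39 and 6.21 CPM with siMlx DXR (interaction 4.07, SE 0.68, adjusted p = 0.000521). Its copy RN7SL1 (3.73) and RN7SK, which holds the elongation factor P-TEFb inactive (1.96), were high in the same untreated siControl libraries. The near-identical copies can share reads. The interaction of the MondoA siRNA with DXR, which uses the same siControl libraries, passed for RN7SL2 (2.33), RN7SL1 (2.1) and RN7SK (1.16) as well. For none of them did the DXR response with siMlx differ from that with the MondoA siRNA at the threshold. The polyadenylated histone transcripts H1-2, listed as HIST1H1C (0.62), and H2BC21, listed as HIST2H2BE (0.83), were positive too. They were 2 of 14 clustered histone genes tested (14.3%, against 6.43% of all genes).

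The DXR response with siMlx was also compared with that of cells given an siRNA against MLXIP (siMondoA), with no control library entering the difference. It was higher for 1960 genes (14.3%) and lower for 2047 (15%). Of the 57 mitosis genes 35 had a lower response with siMlx than with siMondoA, of 51 replication genes 47, of 43 repair genes 31, of 47 ribosome biogenesis genes 27 and of 52 interferon-stimulated effectors 27, with none higher in these lists. The level at the start differed: the mean of the mitosis list was -1.73, -1.54 and -0.94 in siMondoA untreated libraries, against -0.16, -0.07 and 0.18 with siMlx, and that of the replication list -1.85, -1.76 and -1.22 against -0.20, -0.02 and 0.17. After DXR the mitosis mean was -3.70, -3.02 and -3.30 with siMondoA and -2.97, -2.74 and -2.88 with siMlx, so that siMondoA libraries were the lower ones in both conditions and fell by less. PLK1 ended at 8.20, 11.3 and 9.64 CPM with siMondoA and DXR, below the siMlx libraries. Of 55 lysosomal genes 27 had a higher and 2 a lower response with siMlx. For PLK1 the difference was -0.88 (SE 0.25, adjusted p = 0.0128), for TGOLN2 1.46 (SE 0.09, adjusted p = 6.58e-09) and for NEK7 2.02 (SE 0.17, adjusted p = 1.29e-07). CDKN1A did not pass this test (-0.09, SE 0.11, adjusted p = 0.553). The interaction of siMondoA with DXR, which shares the siControl libraries with that of siMlx, had 798 positive (5.84%) and 586 negative genes (4.28%), and for CDKN1A it was -0.70 (SE 0.11, adjusted p = 0.000379). Other named genes also passed in the same direction as with siMlx. Among them were FGF2 (1.25), KATNAL1 (0.6), NOTCH2 (0.57), CYR61 (0.46), BNIP3 (-0.34), BAK1 (-0.35) and STC1 (-0.47). PXN (-0.66), TK1 (-0.69), KIF20A (-0.81), BBC3 (-0.86) and TOX (-0.98) did so too. TGOLN2 (-0.07) and NEK7 (0.1) did not pass, and genes that passed in opposite directions are given below.

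Besides MLX, SOCS1 and IFIT1, 7 genes named by the rule given below lost their call when single libraries were left out. FAM84A lost it without siControl untreated 1 (adjusted p = 0.0655), POLQ without siMlx DXR 1 (0.0542) and CTGF without siControl untreated 2 (0.0514). SESN3 lost it without siControl untreated 1, siMlx untreated 3, siControl DXR 3 or siMlx DXR 2 (up to 0.0832). TNFRSF10D lost it without siControl untreated 2 or 3, siMlx untreated 2, or siMlx DXR 2 or 3 (up to 0.0664). CCNE2 lost it without siControl untreated 1 or 2, siMlx untreated 3, siControl DXR 1, or siMlx DXR 2 or 3 (up to 0.0908). ULK2 lost it without siControl untreated 2 or 3, siMlx untreated 1 or 2, siControl DXR 1, or siMlx DXR 2 or 3 (up to 0.109). MXD4 and IFITM2, named outside the rule, lost their calls in single fits too. MXD4 lost it without siControl untreated 1, where the positive count of its list was 0. IFITM2 lost it without siControl untreated 2, where the negative count of interferon-stimulated effectors was 4.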

How the data were processed

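Read counts per gene, deposited by the authors as whole numbers with no normalization, were analysed; the deposited RPKM table was not used. The submitters' processing notes name bcl2fastq, TopHat2 2.1.1 and GRCh38. For the counting program, annotation and strand, nothing is stated in the sources used here, so overlapping and antisense genes are uncertain. Older symbols were read through a list of older gene names and RefSeq synonyms. GENCODE release 29 gave positions and 3′ UTRs of at least 30 bases.

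All 18 libraries were fitted in edgeR 4.0.16 (R 4.3.3) after filterByExpr and TMM scaling, with 1 mean per group (12 residual degrees of freedom, biological coefficient of variation 7.42%). Contrasts were tested by the two-sided quasi-likelihood F test with Benjamini-Hochberg adjustment over 13676 genes and a threshold of 0.05. CPM are after TMM, and list levels use a prior count of 2. Over 12 replicate pairs the chi-square per degree of freedom was 6.27 to 16.4, so no library was a copy of another. The fit was tested on simulated data.

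The members and 30 gene lists were chosen with earlier results of these data known. Genes were named by a rule: 12 set genes, the 12 highest and 12 lowest interactions past the threshold with at least 5 CPM in 1 group, and, for each list and each shape of at least 10 genes, the 4 with the smallest p, plus each list's extreme members; of 160 such genes 108 are given, and 1 result is not reported here. MXD4, IFITM2, OAS1 and XAF1 were named after their values were seen. Alternatives were other scalings and filters, DESeq2 1.42.0, the 12 libraries alone, differences in CPM, a replicate block and leaving out each library.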

Additional observations from a re-analysis of the deposited data

Results flagged for a closer look

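For 11 genes named above, the interactions of siMlx and of siMondoA with DXR passed the test in opposite directions. The DXR response with siMlx less that with siMondoA equals the siMlx interaction less the siMondoA interaction. Genes chosen for opposite interactions were therefore all but bound to pass edgeR's test of that difference. The values give its size and its p-values add no support. The DXR response was lower with siMlx than with siMondoA by the following log2 differences: TRIM5 -1.55, IFI16 -1.46, PSMB8 -1.16, ADAR -1.06, CMTR1 -0.93, PRDX3 -0.81 and XPOT -0.59. It was higher with siMlx for TNFRSF11B (2.86), HIST2H2BE (2.02), BMF (1.73) and KIF1C (1.38). The adjusted p of these differences was 1.60e-05 for ADAR, the largest, and 3.10e-09 for KIF1C, the smallest. Of the 7 genes with a lower response, 5 belong to the interferon lists. IFI16 was at 76.7, 88.3 and 84.0 CPM with siMondoA untreated and at 215, 224 and 283 CPM with siMondoA and DXR, above the treated siControl libraries and further above the treated siMlx libraries. TNFRSF11B was at 40.2, 41.4 and 36.5 CPM with siMondoA untreated and at 27.8, 25 and 40.9 CPM with DXR, so that it started higher with siMondoA than with either other siRNA. PRDX3 was at 63.9, 64.6 and 58.8 CPM with siMondoA untreated, below every siControl and siMlx library.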

How the results depend on the processing

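The counts of genes with an interaction stayed within 1.5 times in each alternative except 1: without siMlx DXR library 1 there were 502 negative genes, 471 of them among the 795. Leaving out each library in turn gave 664 to 943 positive and 502 to 872 negative genes. DESeq2 gave 1030 and 780, and no low-count filter 1125 and 833. Of 100 called genes named by the rule, 90 passed in the same direction in all 19 alternative fits and 99 in those leaving out no library.

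The interactions of 5 genes past no test crossed 0 when single libraries were left out: MLXIP from -0.12 to 0.02 (above 0 without siMlx untreated library 1), TXNIP from -0.47 to 0.21 (0.21 without siMlx untreated library 3 and 0.11 without siMlx DXR library 1), ARRDC4 from -3.42 to 0.67 (above 0 without siMlx untreated library 1), CDKN2A from -0.02 to 0.19 (below 0 without siMlx untreated library 3 or siMlx DXR library 1) and IL6 from -0.04 to 0.41 (below 0 without siControl untreated library 2). As differences in CPM in place of ratios, 36 of 880 positive and 26 of 795 negative genes changed sign, by construction of the scale. Those named were CDKN1A (607), CYFIP2 (12.7), BBC3 (7.67), FAM84A (1.78), SESN1 (0.911) and POLQ (0.618), and IFIT1 (-416), FGF2 (-35.1), TGOLN2 (-13.4), COL8A1 (-8.18), HIST2H2BE (-2.45) and ARSB (-1.11).

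With the replicate number as a block there were 1098 positive and 1027 negative genes, 51 of them in the mitosis list. The numbers are the same in each group, but no label says what they share, and 7 of 18 same-number pairs had deviations correlated above 0.1 (-0.086 to 0.277), among them all 3 between siControl DXR and siMlx DXR (0.17 to 0.277); 9 of 12 libraries correlated best with their own number. With 3 libraries per group, small interactions could not be told from the spread between libraries, and genes near the filter carry the widest errors.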
